A study of Mus musculus with 2 samples.

Results

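Cycling cells of the arthritic synovium were described here as the kept cells with at least 1 unique molecular identifier (UMI, a counted RNA molecule) for at least 3 of the 4 genes *Mki67*, *Top2a*, *Birc5* and *Ube2c*. A cell was kept where it had at least 500 detected genes and at most 10% of its UMIs from mitochondrial genes. There were 193 cycling cells among 10249 kept cells (1.88%), 77 of 5696 in the β-glucan library and 116 of 4553 in the PBS library. The matrices held 12956 barcodes in all, 7196 with β-glucan and 5760 with PBS.

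A cell that divides copies its DNA in S phase and separates the copies in mitosis after G2, and each step has its own set of transcribed genes. *Mki67* encodes the Ki-67 protein that coats mitotic chromosomes, *Top2a* the topoisomerase that untangles DNA, *Birc5* the chromosomal passenger protein survivin and *Ube2c* a ubiquitin-conjugating enzyme of the anaphase-promoting complex. In the synovium, macrophages are known to renew both from cells that divide in the tissue and from blood monocytes, and the receptor for colony-stimulating factor 1, encoded by *Csf1r*, sustains both sources.

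The cells came from hind paws of C57BL/6 mice that were 7 to 10 weeks old at the start and received β-glucan (1 mg per mouse), a fungal cell wall sugar used to induce trained immunity, or PBS 7 days before arthritis was induced. CD45+CD11b+ cells, the gate for myeloid leukocytes, were sorted at day 17 of arthritis, and 4 mice per group gave 1 library per group without a label for the single mouse. Both groups carried arthritis, and no library without arthritis or without an injection was analysed. The study's design text and methods name K/BxN serum transfer as the arthritis model for these cells, whereas the sample labels describe an antibody cocktail followed by lipopolysaccharide. The libraries held 81611849 UMIs with β-glucan and 73874602 with PBS. With 1 library per group there is no test between the groups, and every interval below is a 95% interval that covers counting error only.

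The cycling cells were deep cells. Their median UMI count was 24665 with β-glucan and 29544 with PBS, against 12370 and 14232 in the other kept cells. Since a deeper cell more easily shows 3 of 4 genes, shares of cells were also computed after drawing each cell down to 5000 UMIs. The libraries had 7 barcodes in common, and none of them belonged to a cycling cell. Among the cells with the highest doublet scores were 11.7% of the cycling cells with β-glucan and 7.76% with PBS, against 6.53% and 5.23% of all kept cells.

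The values of the 4 genes chose the cells and are given as a description. *Mki67* was present in every cycling cell of both libraries, at 767 counts per 1000000 UMIs (CPM) with β-glucan and 754 CPM with PBS. In the other kept cells it stood at 7.72 and 7.97 CPM. *Birc5* was seen in 76 of 77 and 113 of 116 cycling cells, at 275 and 301 CPM. *Top2a* was seen in 66 and 101 cycling cells, at 548 and 576 CPM, and *Ube2c* in 67 and 99, at 292 and 246 CPM. The gene that a cycling cell lacked was thus most often *Top2a* or *Ube2c*. *Stmn1*, which encodes the microtubule-destabilising protein stathmin and was not part of the rule, was found in 76 of 77 and 114 of 116 cycling cells, at 755 and 921 CPM. It reached 15.9 and 17.6 CPM in the other kept cells.

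The stretches upstream of *Top2a* and *Ube2c* are shown because these rule genes are transcribed in the same late part of the cycle and their promoters hold short motifs known from cell cycle genes. The motifs searched on both strands were CCAAT, the letters read by the factor NF-Y, and TTTGAA, a form of the cell cycle genes homology region read by complexes with MuvB. The windows took the 250 bases before the first annotated base of the gene (GRCm39, GENCODE vM39), trimmed to the stretch free of exons, and capitals mark the motifs, written ATTGG or TTCAAA where they lie on the other strand.
Top2a, chr11:98915063-98915312, minus strand: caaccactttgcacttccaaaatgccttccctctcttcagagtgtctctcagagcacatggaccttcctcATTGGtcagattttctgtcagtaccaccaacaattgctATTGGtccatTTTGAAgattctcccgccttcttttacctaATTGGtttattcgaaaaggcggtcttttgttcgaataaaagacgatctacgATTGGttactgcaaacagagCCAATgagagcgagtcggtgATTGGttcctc
Ube2c, chr2:164611587-164611767, plus strand: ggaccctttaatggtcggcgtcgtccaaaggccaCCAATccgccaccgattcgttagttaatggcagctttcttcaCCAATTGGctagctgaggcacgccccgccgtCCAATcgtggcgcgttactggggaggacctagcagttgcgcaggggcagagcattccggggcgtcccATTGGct
The *Top2a* stretch held 6 CCAAT and 1 TTTGAA, the latter 132 to 127 bases before the gene. The *Ube2c* stretch held 5 CCAAT and no TTTGAA, and a pair of its CCAAT matches on opposite strands share letters. The 250 bases before *Mki67* and *Birc5* held neither set of letters, and only the last 77 before *Birc5* are free of exons. Over 21757 protein-coding genes, 36.1% of windows of this length held CCAAT, 16.9% held TTTGAA and 6.46% held both. A match is a description of letters and not a binding site.

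The cells on either side of the rule were as follows. With 2 of the 4 genes there were 44 cells with β-glucan and 62 with PBS, and *Stmn1* was seen in 65.9% and 64.5% of them. With exactly 3 genes there were 22 and 35 cells, 100% and 94.3% of them with *Stmn1*. With all 4 genes there were 55 and 81 cells. Summed UMIs of the 4 genes had a median of 3 per cell with 2 genes in both libraries, of 14.5 and 15 with 3 genes, and of 61 and 71 with all 4. These sums are of the genes that chose the cells.

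Cycling cells were a larger share of the PBS library than of the β-glucan library. They made up 1.35% of kept cells with β-glucan (Clopper-Pearson interval 1.07 to 1.69%) and 2.55% with PBS (2.11 to 3.05%). The PBS share was 1.88 times the β-glucan share (interval 1.40 to 2.55). At 5000 UMIs per cell, 46 of 5013 and 69 of 4011 cells cycled, 0.918% and 1.72%, and the ratio was 1.87 (1.27 to 2.78). That draw left out 683 and 542 shallower cells. The difference exceeded counting error at both depths, but the spread between mice is not measured, and library and pretreatment cannot be told apart.

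**Figure D1:**
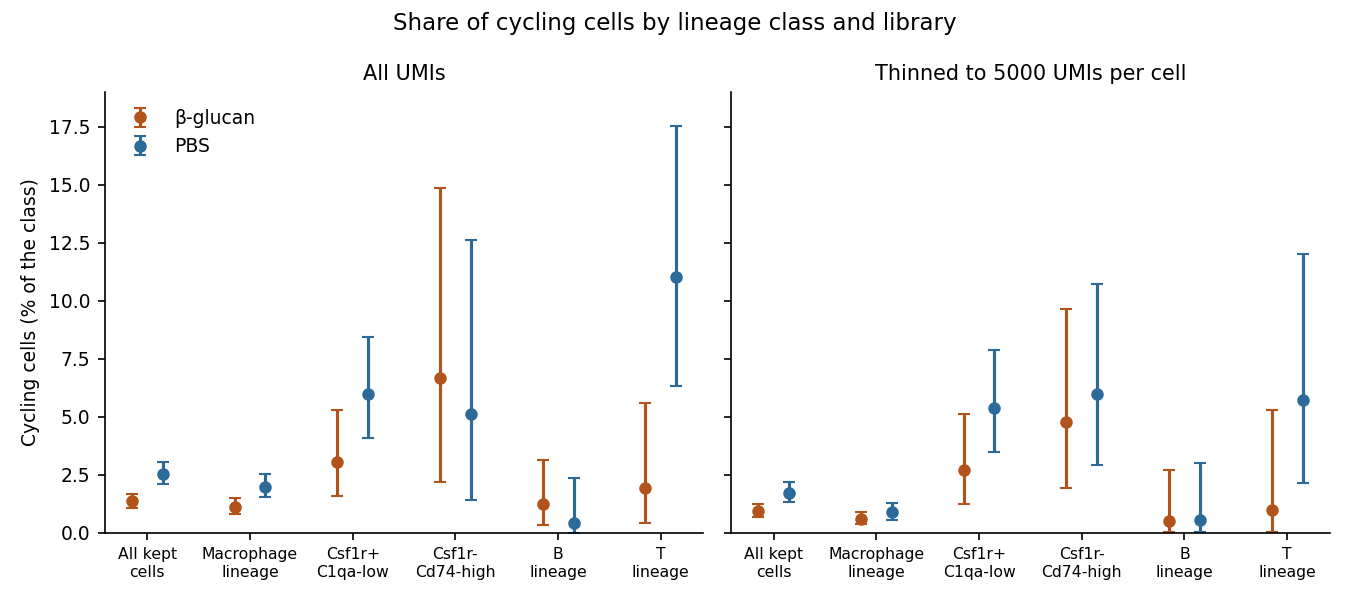
Share of cycling cells in percent (vertical axis) in all kept cells and in 5 lineage classes, with all UMIs (left) and at 5000 UMIs per cell (right), for β-glucan (orange) and PBS (blue). Points are shares of 1 library each and bars are Clopper-Pearson intervals for counting error only. The share of all kept cells is 1.35% with β-glucan and 2.55% with PBS.

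The lineage of each cycling cell was read from 5 genes. *Csf1r* marks cells of the macrophage line, *C1qa* encodes a chain of complement C1q made by tissue macrophages, *Cd74* the invariant chain of MHC class II, *Cd79a* a part of the B cell receptor and *Cd3e* a part of the T cell receptor complex. Cells with at least 2 *Cd79a* UMIs were put in the B lineage, then cells with *Cd3e* in the T lineage, then cells with *Csf1r* and at least 2 *C1qa* UMIs in the macrophage lineage. The remaining *Csf1r*-positive cells are called C1qa-low, and cells without *Csf1r* but with at least 20 *Cd74* UMIs are called Cd74-high. These calls had a background, whose source (free RNA or barcodes with more than 1 cell) was not tested. A *C1qa* UMI was seen in 29.2% and 24.8% of B cells recognised by other B cell genes, at a median of 6031 and 6541 UMIs per cell, and a *Cd79a* UMI in 2.21% and 1.05% of macrophages, at medians of 13774.5 and 15997. A *Csf1r* UMI was seen in 27.3% and 24.2% of those B cells. In T cells, at medians of 10516 and 9087 UMIs, it was seen in 34.8% and 18.9%. In each library 3 cycling cells had exactly 1 *Csf1r* UMI. A *Cd3e* UMI, which is enough for the T lineage, was seen in 1.04% and 0.562% of the macrophages.

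With all UMIs, most cycling cells were of the macrophage lineage in both libraries. They numbered 48 of 77 with β-glucan (62.3%, interval 50.6 to 73.1%) and 63 of 116 with PBS (54.3%, 44.8 to 63.6%). The C1qa-low class came next, with 12 and 30 cells (15.6% and 25.9%). The T lineage held 3 and 15 cells (3.90% and 12.9%), the Cd74-high class 5 and 4, the B lineage 4 and 1. A single PBS cell had both *Cd79a* and *Cd3e*, and 5 and 2 cells had none of these profiles. The intervals of the macrophage share overlapped between the libraries. At 5000 UMIs per cell the macrophage lineage held 24 of 46 (52.2%) and 25 of 69 (36.2%) cycling cells, a move past counting error with PBS only.

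**Figure D2:**
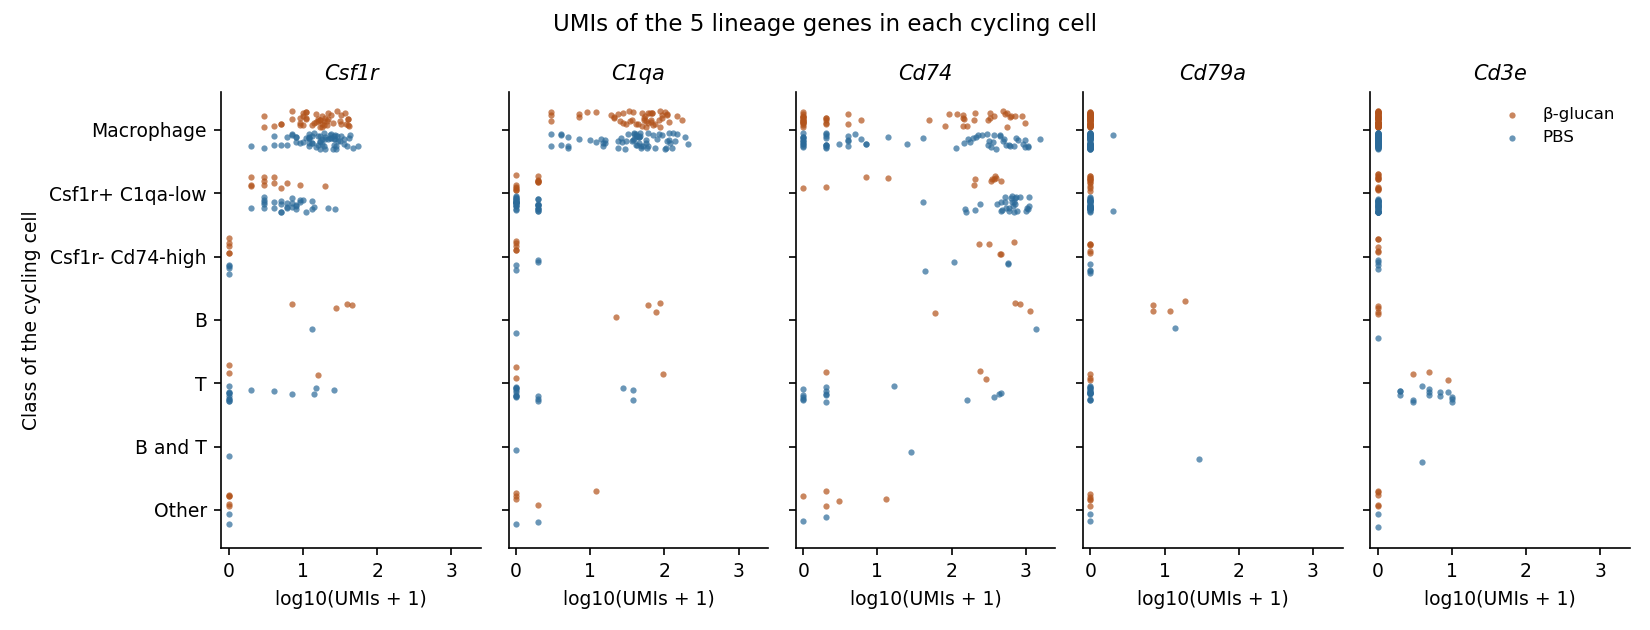
UMIs of the 5 lineage genes in each of the 193 cycling cells, as log10(UMIs + 1) on the horizontal axes, with the class of the cell on the vertical axis and the library by colour. Each point is 1 cell, jittered vertically. Macrophage-lineage cells spread from no *Cd74* to 1558 UMIs, and all 30 C1qa-low PBS cells have at least 40 *Cd74* UMIs.

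Within the macrophage lineage 1.12% of cells cycled with β-glucan (48 of 4280, interval 0.828 to 1.48%) and 1.99% with PBS (63 of 3163, 1.53 to 2.54%). The ratio of PBS over β-glucan was 1.78 (1.20 to 2.64). At 5000 UMIs per cell it was 1.43 with an interval of 0.786 to 2.62, which includes 1. In the C1qa-low class 3.07% cycled with β-glucan (12 of 391) and 5.98% with PBS (30 of 502), a ratio of 1.95 (0.968 to 4.18). In the T lineage 3 of 154 cells cycled with β-glucan (1.95%) and 15 of 136 with PBS (11.03%). The ratio of 5.66 (1.60 to 30.5) rested on 3 cells on one side, and 3 of the 15 PBS cells had exactly 1 *Cd3e* UMI. The ratio was 2.26 with at least 2 of the 4 rule genes and 3.76 under a filter of 1000 genes and 5% mitochondrial UMIs. Only 1 of 103 and 6 of 105 T-lineage cells cycled at 5000 UMIs, and that ratio had an interval from 0.714 to 271. Within each library the C1qa-low class had a larger cycling share than the macrophage lineage, and the intervals did not overlap (for the C1qa-low class 1.60 to 5.30% and 4.07 to 8.42%).

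The macrophage-lineage cycling cells also carried macrophage markers that the class rule did not use. All 8 listed markers, of which *Csf1r* and *C1qa* had chosen the class, were seen in both libraries, at a summed 7304 and 6451 CPM, against 11487 and 11679 CPM in the other macrophage-lineage cells. *Adgre1*, which encodes the macrophage protein F4/80, was found in 46 of 48 and 61 of 63 cells, and the mannose receptor gene *Mrc1* in 45 and 60. The 8 T cell markers summed to 0.729 and 1.87 CPM and the 7 B cell markers to 2.19 and 41.6 CPM, most of the latter *Ebf1* at 34.1 CPM. The rule itself kept *Cd3e* at 0 and *Cd79a* at no more than 1 UMI in these cells. The lineage call of a part of the cycling cells was close to its limit, since 9 and 15 of them had *Csf1r* with a *C1qa* count of 1 or 2.

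Most C1qa-low cycling cells carried MHC class II RNA, as did many other cells of the class. The 5 MHC class II markers summed to 21831 and 35803 CPM in the cycling cells against 24639 and 28127 CPM in the other C1qa-low cells. The median *Cd74* count was 271.5 UMIs in the 12 β-glucan cells and 637.5 UMIs in the 30 PBS cells. At least 20 UMIs were seen in 8 of 12 and 30 of 30 cells. *C1qa* was at 0 in 6 and 19 of them. *Ccr2*, the receptor that draws monocytes out of the blood and is also found on monocyte-derived dendritic cells, was seen in 10 of 12 and 28 of 30 cells, at 818 and 640 CPM. *Fcgr1*, the high-affinity IgG receptor gene of macrophages, was seen in 0 and 2 of them. The dendritic cell gene *Flt3*, which encodes a growth factor receptor, was found in 3 of 12 and 19 of 30 cells, and *Cd209a*, a lectin gene of monocyte-derived dendritic cells, in 5 and 16. *Ccl17*, a chemokine gene of dendritic cells, reached 942 CPM with PBS in 21 cells, 38.5% of it in 1 cell, and 49.6 CPM with β-glucan in 3 cells. *Xcr1* and *Clec9a*, genes of conventional type 1 dendritic cells, were each seen in 1 cell per library. The 8 dendritic cell markers thus summed to 260 CPM with β-glucan and 1309 CPM with PBS. In the other C1qa-low cells they summed to 638 and 990 CPM. Of those other cells, *Ccr2* was seen in 56.2% and 65.0%, at 601 and 579 CPM, and *Fcgr1* in 10.0% and 11.7%. *Flt3* was seen in 39.8% and 33.1% of them and *Cd209a* in 28.8% and 31.1%. Those other cells were shallower, at medians of 12133 and 15245 UMIs against 18199.5 and 34674.5 in the cycling cells. Stromal markers summed to 1850 CPM with β-glucan and 57.2 CPM with PBS. Nearly all of the β-glucan value came from 1 cell with 184 stromal UMIs per 10000 and no *Cd74*, while no other β-glucan cell of the class exceeded 2.86 per 10000.

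The Cd74-high cycling cells, 5 with β-glucan and 4 with PBS, had no *Csf1r* and 43 to 696 *Cd74* UMIs each. *Flt3* was seen in 5 of 5 and 2 of 4 of them, *Xcr1* in 2 and 1, and *Clec9a* in 2 of each library. *Irf8*, a transcription factor gene of type 1 dendritic cells, was seen in 4 and 2, at 728 and 769 CPM. A single cell held 49.4% and 52.3% of its UMIs. *Ccr2* was seen in 5 and 4 of the cells, and *Zbtb46*, another listed dendritic cell gene, in 5 and 3. *Cd209a* was seen in 2 and 0, and *Ccl17* in 1 and 3. The 8 dendritic cell markers summed to 695 and 1276 CPM, against 1359 and 1822 CPM in the other Cd74-high cells. Of those other cells, *Flt3* was seen in 70% and 77.0% and *Irf8* in 34.3% and 37.8%. *Zbtb46* was seen in 62.9% and 54.1% of them and *Ccr2* in 75.7% and 81.1%. Of all Cd74-high cells, 6.67% (5 of 75) and 5.13% (4 of 78) cycled.

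Most T-lineage cycling cells did not meet the macrophage-lineage criteria, although the CD11b gate is not one for lymphocytes. *Csf1r* was seen in 7 of the 18 and *C1qa* in 7. Of the 18, 1 with β-glucan and 3 with PBS also met the *Csf1r* and *C1qa* criteria of the macrophage lineage, and 14 did not. Mixed profiles remained among the 14. A β-glucan cell had 238 *Cd74*, 14 *Flt3* and 26 *Ccr2* UMIs beside 4 of *Cd3e*. A PBS cell had 466 *Cd74* and 6 *Csf1r* UMIs, and another had 158 and 3. Their source was not tested. Over all 18, MHC class II markers summed to 8863 and 7065 CPM, against 6289 and 2329 CPM in the other T-lineage cells. Among the 14, *Cd4*, the coreceptor gene of helper T cells, was seen in 9, and *Foxp3*, the regulatory T cell factor, in 1. *Cd8a* was seen in 0 of 14, which allows a share of cells with a UMI of up to 21.4% and does not limit expression. *Cd8a* had a UMI in 16.1% and 11.3% of the other T-lineage cells. Leaving out the cells that met both sets of criteria took the T lineage from 154 to 114 cells with β-glucan and from 136 to 118 with PBS. Of those left, 2 and 12 cycled. The mixed profiles given above are still among those 2 and 12.

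With β-glucan, no cycling cell carried *Cd79a* without macrophage genes. All 4 β-glucan cells of the B lineage carried *Csf1r* (6 to 45 UMIs) and *C1qa* (21 to 87 UMIs) beside 6 to 18 *Cd79a* UMIs, in barcodes of 19373 to 77718 UMIs. The only PBS cell of the B lineage had 13 *Cd79a* and 12 *Csf1r* UMIs with 1358 of *Cd74*, and *Ccl17* at 8413 CPM. Whether these barcodes held more than 1 cell was not tested. Among the unclassified cells, 1 β-glucan cell had 3887 of every 10000 UMIs in neutrophil markers, 1 β-glucan cell had 735 per 10000 in mast cell and basophil markers, and 1 PBS cell had 288 per 10000 in stromal markers. These cells were chosen for mention after their values were seen.

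Lists of S phase and G2/M genes, which leave out the 4 rule genes, placed the cycling cells along the cycle. The S phase list (46 genes, among them those of the MCM helicase) had a median of 20.8 UMIs per 10000 in cycling cells with β-glucan and 27.7 with PBS, against 5.89 and 5.84 in the other kept cells. The G2/M list (59 genes, among them mitotic kinesins and cyclins) had medians of 86.7 and 75.8, against 8.43 and 8.70. Since the rule genes are themselves of G2 and mitosis, the G2/M level follows from the choice of cells. Of the cycling cells, 64 of 77 and 97 of 116 lay above 99% of the other cells of their library on the G2/M list, and 36 and 62 on the S phase list. Both limits were passed by 35 and 57 cells and neither by 12 and 14. The libraries overlapped on both lists. The lower and upper quartiles for S phase were 9.22 and 42.4 with β-glucan, 8.95 and 56.2 with PBS, and those for G2/M were 39.2 and 138 against 38.6 and 109.

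Medians by class were as follows, with wide overlap between classes. In macrophage-lineage cycling cells the S phase list had medians of 17.2 and 12.1 UMIs per 10000 and the G2/M list of 73.1 and 56.1. In C1qa-low cycling cells the medians were 26.5 and 36.6 for S phase and 97.0 and 93.9 for G2/M. The S phase quartiles of these classes were 9.82 and 41.0 against 9.31 and 41.1 with β-glucan, and 7.65 and 47.9 against 18.3 and 57.8 with PBS. The T-lineage cells, only 3 with β-glucan, had medians of 49.2 and 31.3 for S phase and 87.7 and 87.3 for G2/M. A PBS macrophage-lineage cell outside the rule reached 239 on the G2/M list, so the rule did not take every cell with a high level.

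**Figure D3:**
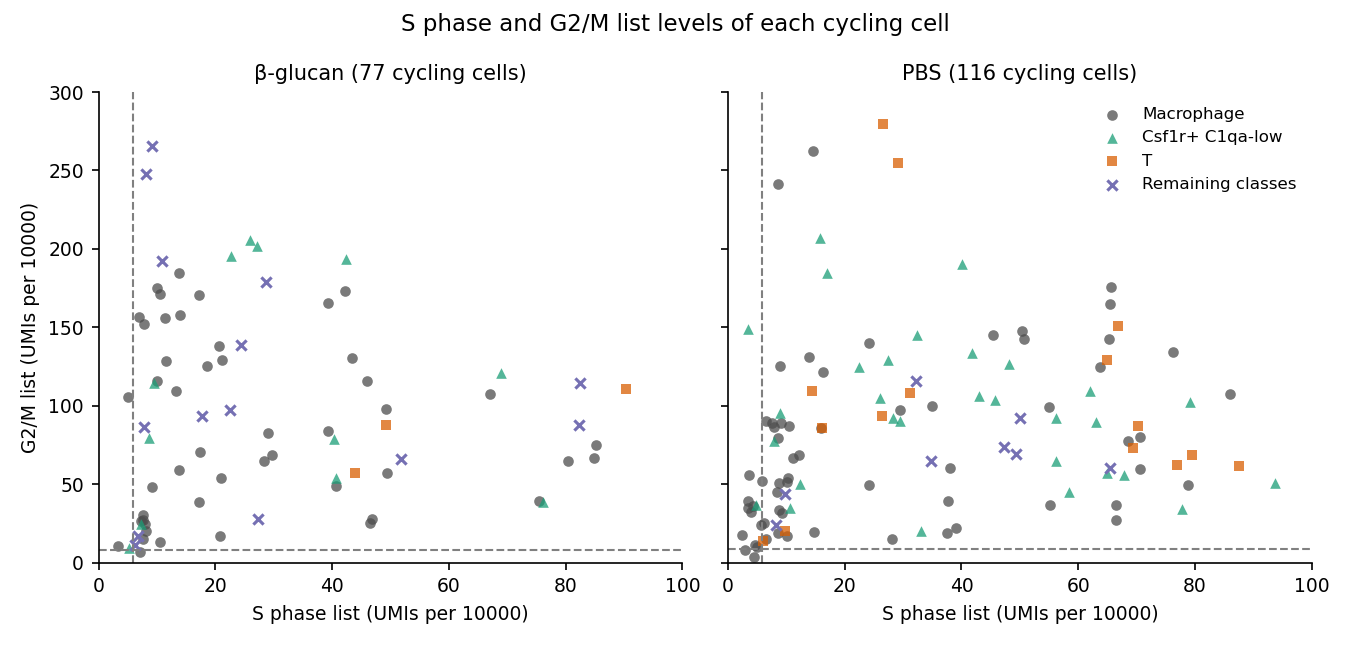
S phase list (horizontal) against G2/M list (vertical), both in UMIs per 10000, for each cycling cell with β-glucan (left, 77 cells) and PBS (right, 116 cells), with the class by symbol. Dashed lines are the medians of the other kept cells, 5.89 and 8.43 with β-glucan and 5.84 and 8.70 with PBS. Most cycling cells lie above the G2/M line, and they spread along the S phase axis up to 93.7.

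Macrophage-lineage cycling cells were next set against the other macrophage-lineage cells of their own library. Beside cell cycle genes, 4 MHC class II genes were higher in the cycling cells, and most genes of lining and resident synovial macrophages had lower values. The comparison took 4391 genes whose mean over the libraries reached 50 CPM in cycling or other cells. Of these, 254 (5.78%) were at least 2-fold higher and 70 (1.59%) at least 2-fold lower in both libraries. These counts describe cells picked by their expression and carry no test.

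Many cell cycle genes reached the level limit only through the cycling cells, so their lists are described over every measured member, without that limit. All 46 S phase genes were higher in cycling cells in both libraries by any amount, as were 4871 of all 32524 genes, while 9667 were lower. *Rrm2*, a subunit of ribonucleotide reductase, stood at 118 and 136 CPM in cycling cells and at 0.664 and 0.651 CPM in the others. *Casp8ap2* stood at 62.7 and 55.7 CPM against 42.4 and 40.7 and had the smallest ratio among the S phase genes at the level limit. Of 59 G2/M genes 58 were higher in both libraries and 1 was lower, which the choice of cells by G2 and mitosis genes favours. *Cenpf*, a kinetochore protein gene, stood at 332 and 259 CPM against 0.809 and 0.613. *Ccna2*, encoding cyclin A2, stood at 139 and 106 CPM against 0.210 and 0.306.

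By the named-gene rule the 10 largest ratios belonged to *H3c3*, *Pbk*, *Kif4*, *Ccna2*, *Bub1*, *Hmmr*, *Cenpf*, *Pclaf*, *Ube2c* and *Aspm*, each seen in at least 23 members of each library. The largest ratios outside the cell cycle lists also included *Neil3*, a DNA repair glycosylase gene, *H1f5*, a linker histone gene at 405 and 409 CPM, *Spag5*, *Melk* and *Shcbp1*. Of 20 nucleotide synthesis genes, 19 were higher in both libraries by any amount, as were 4871 of all 32524 genes. Thymidine kinase *Tk1*, among the 19, stood at 141 and 132 CPM against 2.15 and 1.82.

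Cyclins, CDKs and inhibitors were more mixed. Of 27 listed, 26 were in the table, 17 were higher and 6 lower in both libraries by any amount. All 32524 genes had 4871 higher and 9667 lower in both. The 17 included *E2f2*, *Rbl1* and the CDK inhibitors *Cdkn2c* and *Cdkn2d*. *Cdkn2c* stood at 81.7 and 77.6 CPM against 18.5 and 23.3. The D-type cyclins did not share a direction, with *Ccnd1* at 72.2 and 71.6 CPM against 35.4 and 38.3 and *Ccnd3* at 223 and 311 CPM against 434 and 464. *Cdkn1a*, which encodes the p21 inhibitor, stood at 149 and 178 CPM against 130 and 154.

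**Figure D4:**
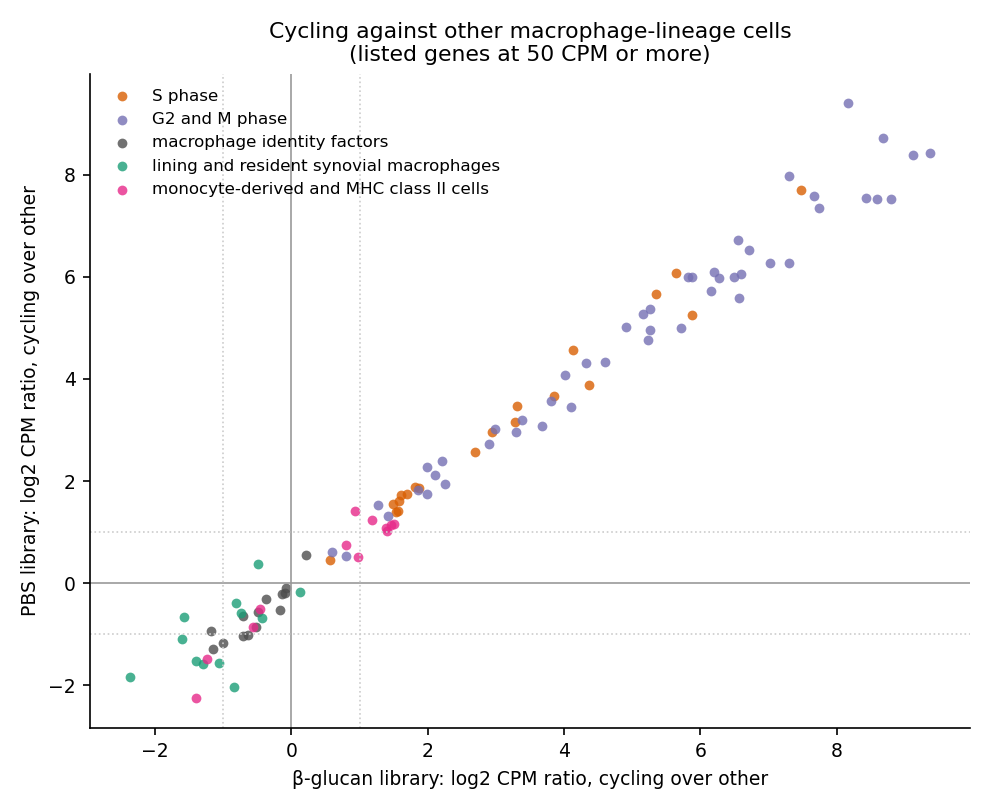
Log2 ratio of CPM in cycling over other macrophage-lineage cells with β-glucan (horizontal) and with PBS (vertical), 1 point per listed gene that reached the level of 50 CPM. Dotted lines mark 2-fold. S phase and G2/M genes lie along the diagonal up to a log2 ratio of 9.36 with β-glucan (*Ccna2*), and lining genes lie low, down to -2.36 with β-glucan for *Lyve1*.

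Genes of macrophage identity mostly had lower values in the cycling cells. Of 18 listed factors, 16 had lower and 2 higher values in both libraries. Of all 32524 genes, without a level limit, 9667 were lower and 4871 higher in both. Of the 14 factors at the level limit, none was 2-fold higher and 2 were at least 2-fold lower, *Klf2* among them. Of all 4391 genes at that limit, 254 (5.78%) were higher and 70 (1.59%) lower by that much. *Klf2*, a factor associated with quiescence, stood at 142 and 163 CPM against 286 and 367. *Mitf*, a transcription factor of the melanocyte and osteoclast lines, stood at 304 and 210 CPM against 690 and 404, a log2 ratio of -1.18 with β-glucan and -0.94 with PBS. *Csf1r* itself stood at 608 and 541 CPM against 1062 and 1017. *Spi1*, the master factor of the myeloid line, was close in both sets at 362 and 354 CPM against 385 and 406. A CPM is a share of the counted RNA, so a lower value in these deeper cells need not be fewer molecules per cell.

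Of 17 lining and resident genes, 15 had lower values in the cycling cells of both libraries and none had higher values in both. Of all 32524 genes, without a level limit, 9667 were lower and 4871 higher in both. At the level limit, 5 of 12 lining and resident genes were at least 2-fold lower in both, as were 70 of all 4391 genes (1.59%). *Lyve1*, a hyaluronan receptor gene of perivascular macrophages, stood at 152 and 213 CPM against 779 and 760. *Folr2* stood at 168 and 124 CPM against 351 and 365, and *Cd163*, a haemoglobin scavenger receptor gene, at 112 and 139 CPM against 340 and 298. *Ednrb* and *Gas6* were the other two. *Cx3cr1*, a chemokine receptor gene of the lining layer, was level at 249 and 162 CPM against 227 and 183. The 10 lowest ratios overall also included *Dcn*, *Cmah*, *Edil3*, *Vcan*, *Tmod1*, *Dnm1* and *Selenop*, and *Selenop*, a selenium carrier gene, stood at 952 and 536 CPM against 2247 and 2062. *Dcn* is a stromal gene, and the 7 stromal markers summed to 92.6 and 129 CPM in cycling cells against 282 and 202 CPM in the others. Their part in the result was not tested.

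The list of monocyte-derived and MHC class II genes split in its parts. *Cd74* stood at 6395 and 7712 CPM in cycling macrophage-lineage cells against 2446 and 3654 in the others. *H2-Aa*, *H2-Ab1* and *H2-Eb1*, which encode MHC class II chains, and *Cd52* were at least 2-fold higher in both libraries too. *Ccr2* stood at 492 and 448 CPM against 282 and 267, under 2-fold. *F13a1* and *Vcan*, both known from monocytes, were at least 2-fold lower, *F13a1* at 688 and 463 CPM against 1616 and 1304. *Ly6c2*, a gene of fresh monocytes, was seen in 0 of 48 and 4 of 63 cycling cells, against 0.614% and 0.710% of the others. It stood at 0 and 6.08 CPM against 1.15 and 0.785, with 61.5% of the PBS UMIs in 1 cycling cell. Of 15 genes of *Spp1* and lipid-associated macrophages 13 reached the limit and none was past 2-fold in both libraries in either direction. Of 20 growth factor receptors and ligands 8 reached it, and the growth factor genes *Igf1* and *Pdgfc* were at least 2-fold lower.

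The same question was put as a share of cells at equal depth, using genes that the rule did not use. At 5000 UMIs per cell, 1.21% of macrophage-lineage cells with a *Ccr2* UMI cycled with β-glucan (16 of 1327) against 0.308% of those without (8 of 2601), a ratio of 3.92 (interval 1.58 to 10.6). With PBS the shares were 1.35% (12 of 890) and 0.662% (13 of 1964), a ratio of 2.04 (0.850 to 4.84). The direction was the same in both libraries, and the PBS interval included 1. Cells with at least 5 *H2-Aa* UMIs cycled at 1.17% and 1.45%, against 0.493% and 0.716% of those below, and both intervals of the ratio included 1. At full depth the *H2-Aa* ratios were 3.26 (1.77 to 5.98) and 3.05 (1.80 to 5.19), and the *Ccr2* ratios 3.52 (1.84 to 7.10) and 3.33 (1.92 to 5.97).

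At 5000 UMIs, *Lyve1*, *Folr2* and *Mitf* gave the opposite order. Cells with a *Lyve1* UMI cycled at 0.268% with β-glucan (5 of 1866) and 0.529% with PBS (7 of 1324), those without at 0.921% and 1.18%. The ratios were 0.291 (0.0849 to 0.805) and 0.449 (0.159 to 1.13). For *Folr2* they were 0.571 (0.231 to 1.38) and 0.306 (0.114 to 0.749). For *Mitf* they were 0.196 (0.0803 to 0.508) and 0.432 (0.181 to 1.07). Each of these 3 genes was thus past counting error in 1 library and not in the other. At full depth none was past it in either library, with ratios of 0.632 (0.337 to 1.16) and 0.806 (0.475 to 1.36) for *Lyve1*, 0.706 (0.379 to 1.36) and 0.622 (0.365 to 1.08) for *Folr2*, and 0.586 (0.188 to 2.95) and 0.560 (0.255 to 1.46) for *Mitf*. Cells with a UMI of *Spp1*, the osteopontin gene, cycled 4.62 (2.38 to 9.51) and 5.64 (3.07 to 11.1) times as often as cells without at full depth, and 0.907 (0.295 to 2.38) and 1.90 (0.764 to 4.52) times as often at 5000 UMIs. The draw to 5000 UMIs also chose the members and the lineage anew, so depth alone was not isolated. *Cd163* had ratios of 0.408 (0.101 to 1.22) and 0.687 (0.224 to 1.79) at equal depth and of 1.72 (0.936 to 3.18) and 1.95 (1.15 to 3.36) at full depth. *Vsig4* had ratios of 0.174 (0.00421 to 1.07) and 0.779 (0.194 to 2.31) at equal depth and of 1.05 (0.496 to 2.06) and 0.752 (0.365 to 1.43) at full depth. *Timd4*, a gene of resident macrophages, had 0 of 345 positive cells cycling with β-glucan and a ratio of 0.965 (0.110 to 3.90) with PBS at equal depth, and ratios of 1.24 (0.528 to 2.60) and 0.731 (0.301 to 1.54) at full depth. *Cx3cr1*, of the lining layer, went the other way and was past counting error with β-glucan, with a ratio of 2.87 (1.16 to 7.76), and stood at 1.37 (0.561 to 3.24) with PBS. At full depth it had 3.27 (1.60 to 7.36) and 1.69 (0.987 to 2.95). The intervals are not adjusted for the 11 genes that were split in this way.

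**Figure D5:**
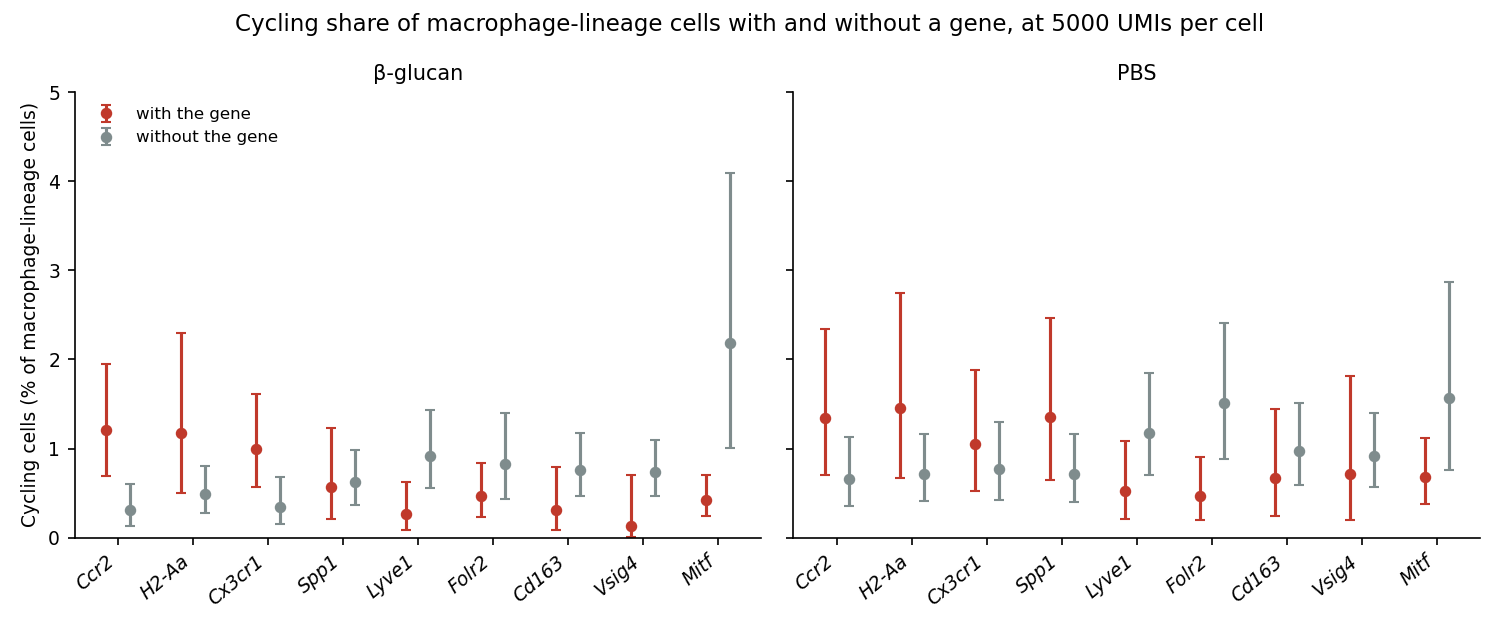
Cycling share of macrophage-lineage cells with (red) and without (grey) a UMI of each named gene (at least 5 UMIs for *H2-Aa*), in percent, after drawing each cell to 5000 UMIs, with β-glucan on the left and PBS on the right. Bars are Clopper-Pearson intervals for counting error only. For *Ccr2* the shares with and without are 1.21% and 0.308% with β-glucan, and for *Lyve1* they are 0.268% and 0.921%.

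Between the pretreatments, cycling macrophage-lineage cells differed in few genes. A level of 50 CPM in one of the libraries was reached by 4308 genes, of which 23 (0.534%) were at least 2-fold higher with β-glucan and 30 (0.696%) at least 2-fold lower. No gene of the S phase list (23 at the limit, median log2 ratio of β-glucan over PBS -0.08), of the G2/M list (50 at the limit, median 0.16) or of the macrophage identity list (13 at the limit, median 0.03) was past 2-fold, where all genes tested had a median of 0.01. *Mitf* was higher with β-glucan by a log2 ratio of 0.53 (interval 0.34 to 0.73), in 45 of 48 cells at 304 CPM against 56 of 63 at 210 CPM. In the other macrophage-lineage cells its log2 ratio was 0.77 (0.75 to 0.80). Among lining genes (11 at the limit, median -0.06) 1 was past 2-fold higher, the complement receptor gene *Vsig4*, and 2 lower, *Fxyd2* and *Retnla*. *Vsig4* stood at 182 CPM in 12 β-glucan cells and 80.9 CPM in 12 PBS cells, with 30.8% and 41.0% of the UMIs in 1 cell. In the other macrophage-lineage cells *Vsig4* stood at 325 and 331 CPM. *Retnla*, a secreted factor of alternatively activated macrophages, stood at 228 CPM in 8 β-glucan cells and 1358 CPM in 21 PBS cells, with 60.7% and 55.0% of the UMIs in 1 cell. Among the *Spp1* and lipid genes (12 at the limit, median -0.38) 1 was higher, *Ctsd*, and 3 were lower, *Fabp5* and *Hmox1* among them. *Hmox1*, the haem oxygenase gene, stood at 89.0 CPM in 31 β-glucan cells and 226 CPM in 42 PBS cells, a log2 ratio of -1.35, against 0.21 in the other macrophage-lineage cells.

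*Slc7a2*, a transporter gene for basic amino acids known for the response of macrophages to interleukin 4, was lower with β-glucan. It stood at 445 CPM in 19 of 63 PBS cells and 6.56 CPM in 6 of 48 β-glucan cells, a log2 ratio of -6.08 (interval -7.22 to -5.15). Its log2 ratio in the other macrophage-lineage cells was -3.83, so the direction was shared by cells outside the cycle.

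*Rnase2a*, *Alox15* and *Mtmr7* had no UMI in the β-glucan cycling macrophages. *Rnase2a*, an eosinophil-type ribonuclease gene, stood at 130 CPM in 11 PBS cells and, at that value, was at least 59.4-fold lower with β-glucan when 3 counts over the group are taken as the floor. *Alox15*, a lipoxygenase gene, stood at 57.5 CPM in 6 PBS cells and was at least 26.3-fold lower. *Mtmr7*, a phosphoinositide phosphatase gene, stood at 52.4 CPM in 14 PBS cells and was at least 23.9-fold lower. These folds take the PBS level as exact. The exact intervals of the log2 ratios, which hold the error of both libraries, ended at -5.59 for *Rnase2a*, -4.40 for *Alox15* and -4.26 for *Mtmr7*. The PBS cell with the most UMIs held 54.3% of those of *Rnase2a*, 45.5% of *Alox15* and 22.3% of *Mtmr7*. In the other macrophage-lineage cells their log2 ratios were -8.10, -6.61 and -2.29.

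*Flt1*, a receptor gene for vascular endothelial growth factor, stood at 202 CPM in 18 PBS cells with 30.6% of the UMIs in 1 of them, and had 1 UMI with β-glucan. Its log2 ratio in the other macrophage-lineage cells was -3.44. The 6 endothelial markers, *Flt1* among them, summed to 278 CPM with PBS and 8.02 CPM with β-glucan. *Cdh5* and *Pecam1*, also among these markers, stood at 23.9 and 29.9 CPM with PBS, with 98.0% and 81.2% of their UMIs in 1 cell. *Fabp4* (431 CPM with PBS) and *Retnlg* (134 CPM with PBS), also among the 8 lowest ratios, each had nearly all of their PBS UMIs in a single cell, 99.7% and 93.7%, so neither value describes the group. The 9 neutrophil markers summed to 1009 CPM with PBS and 492 CPM with β-glucan, and 86.8% of the PBS UMIs of *S100a9*, the most abundant, lay in 1 cell, while *Ly6g*, which defines neutrophils, had 2 UMIs with PBS and 0 with β-glucan. The part of these markers in *Retnlg* was not tested.

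The genes highest with β-glucan were less marked. *Gpx3* and *Rsad2* had log2 ratios of 7.10 and 4.63, with 92.0% and 98.2% of their β-glucan UMIs in 1 cell. The other named genes, *Ccl4* apart, were spread over more cells, but several depended on the rule. With at least 2 of the 4 rule genes, the log2 ratio was 0.45 for *St18*, 0.71 for *Arhgap24*, 0.87 for *Mtus1* and 0.96 for *Syngr1*, all under 2-fold. *St18*, a zinc finger factor gene, stood at 177 CPM in 25 of 48 β-glucan cells and 49.6 CPM in 21 of 63 PBS cells, a log2 ratio of 1.84 (interval 1.50 to 2.18). *Arhgap24*, a GTPase-activating protein gene, stood at 114 CPM in 25 cells and 42.1 CPM in 24, a log2 ratio of 1.43 (1.05 to 1.82). *Mtus1*, *Syngr1* and *Grap2*, an adaptor gene, had log2 ratios of 1.41, 1.40 and 1.25. That of *Grap2* was 0.94, under 2-fold, with the filter of 1000 genes and 5% mitochondrial UMIs, and 2.04 with all 4 rule genes. *Ccl4*, an inflammatory chemokine gene, stood at 93.3 and 34.6 CPM with 8 positive cells in each library and 45.3% and 62.2% of the UMIs in a single cell, a log2 ratio of 1.43 that was 4.58 without the highest doublet scores. In the other macrophage-lineage cells the log2 ratios were 0.41 for *St18*, 0.51 for *Arhgap24*, 0.47 for *Ccl4*, 0.44 for *Mtus1*, -0.12 for *Syngr1* and -0.09 for *Grap2*.

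Over all cycling cells, without regard to lineage, 48 of 4322 genes (1.11%) were at least 2-fold higher and 39 (0.902%) at least 2-fold lower with β-glucan. The S phase list had 22 of 24 genes at the limit on the PBS side, with a median log2 ratio of -0.25, and none past 2-fold. Of all 4322 genes, 2118 lay on the PBS side, with a median of 0.01. The lineage makeup differs between the libraries in that comparison. In C1qa-low cycling cells 464 of 4555 genes (10.2%) were higher and 222 (4.87%) lower, on 12 and 30 cells. Stromal markers summed to 1850 CPM in these β-glucan cells, nearly all from 1 cell, and to 57.2 CPM with PBS. MHC class II markers summed to 21831 against 35803 CPM and dendritic cell markers to 260 against 1309 CPM. The part of these markers in the 2 counts was not tested. Against other C1qa-low cells of the same library, 288 of 4473 genes (6.44%) were at least 2-fold higher and 149 (3.33%) lower in the C1qa-low cycling cells. Of the listed genes at any level, 58 of 59 G2/M and 45 of 46 S phase genes were higher in both libraries, as were 3558 of all 32524 genes. The other C1qa-low cells held neutrophil markers at a summed 2284 and 1715 CPM, against 8.26 and 2.81 CPM in the cycling cells, and the part of this mixture in the lower genes was not tested.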

How the data were processed

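CD45+CD11b+ synovial cells were profiled with the Chromium 3' v3.1 chemistry. The authors deposited UMI counts per gene and barcode, made with Cell Ranger 7.0.0 on GRCm39, per the study's methods; whether intronic reads were counted is not given in the sources used here. The study's filter left 5696 and 4553 of 7196 and 5760 barcodes. The cell number given in the study equals the barcodes before that filter. Summed counts were scaled to CPM per lineage class and library, and log2 ratios had exact binomial intervals; edgeR 4.0.16 supplied the TMM alternative. Named genes were the rule and lineage genes, *Stmn1*, *Mitf*, the 8 highest and 8 lowest ratios between libraries (at least 50 CPM, same sign over all members, no mitochondrial, ribosomal or unnamed genes), the 10 highest and 10 lowest ratios against other cells, and list extremes. Scrublet marked 0 and 3 barcodes and so did not work; leaving out the 414 and 265 highest scores was an alternative. Members, lists and splits were chosen with earlier results of these data known. Among 51 named genes, 13 share a strand and bases with another annotated gene, and *H3c3* has near-identical copies, so their counts are uncertain. The calculations were tested on simulated data. Some genes that the rule names are not reported here.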

Additional observations from a re-analysis of the deposited data

How the results depend on the processing

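No paired analysis was possible because each group is 1 library. The ratio of PBS over β-glucan in the cycling share stayed between 1.84 and 1.94 over the 7 alternatives run for it. The shares themselves moved with the rule and with depth. With at least 2 of the 4 genes they were 2.12% and 3.91%, in the macrophage lineage 1.75% and 3.26%, and in the PBS C1qa-low class 8.96%. With all 4 genes they were 0.966% and 1.78%, and 0.771% and 1.33% in the macrophage lineage. At 5000 UMIs per cell they were 0.918% and 1.72%, in the macrophage lineage 0.611% and 0.876%, and in the PBS T lineage 5.71%, and the macrophage lineage made up 36.2% of PBS members. Against other macrophage-lineage cells the counts of higher and lower genes were 466 and 115 at a minimum of 20 CPM, 118 and 45 at 100 CPM, 1076 and 4789 without a minimum, and 167 and 19 with at least 2 of 4 genes. Between the libraries they were 72 and 115, 6 and 17, 1581 and 2845, and 13 and 15 under the same 4 settings. TMM and median-of-ratios scaling shifted log2 ratios by -0.01 and -0.02. *Fabp4* turned to a log2 ratio of 0.038 under the stricter filter of 1000 genes and 5% mitochondrial UMIs. *St18*, *Arhgap24*, *Mtus1*, *Syngr1*, *Ccl4*, *Grap2*, *Retnlg* and *Mitf* (to 0.76 with at least 2 of 4 genes) also moved beyond counting error under at least 1 alternative. Among the alternatives for results across cells or genes, 159 values stayed within counting error or within 1.5 times the count, and 31 moved beyond it. Leaving out barcodes of mixed lineage was added after seeing the data. In the T lineage the ratio of PBS over β-glucan ranged from 2.26 (at least 2 of 4 genes) to 5.89 over 9 alternatives, and in the macrophage lineage from 1.43 to 1.86. The lymphocyte classes held few cycling cells, so single cells set their shares.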

Other observations

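Among the 1500 and 1207 barcodes left out by the filter, 3 with β-glucan and 6 with PBS had at least 3 of the 4 rule genes. These are too few to describe by lineage.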
